A study of Mus musculus with 2 samples.

Results

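The 9 non-clustered protocadherins *Pcdh7*, *Pcdh8*, *Pcdh9*, *Pcdh10*, *Pcdh15*, *Pcdh17*, *Pcdh18*, *Pcdh19* and *Pcdh20* were followed in nuclei of the mouse olfactory bulb (OB). They were chosen by their symbols, each of which names 1 of the 31055 rows of both deposited matrices. The nuclei came from adult mice labelled as wild type (WT) that had received a retrogradely transported virus coding for a nuclear green fluorescent protein (retroAAV-CAG-H2B-GFP), either in the anterior olfactory nucleus (AON) or in the posterior piriform cortex (pPCx). The virus enters axon endings and carries its reporter back to the nucleus, and its promoter is not restricted to a cell type. Nuclei positive for the reporter and for a DNA dye were sorted from the OB and made into 1 single-nucleus library for each injection site. The pPCx library came from 1 female mouse, and neither the sex nor the number of animals behind the AON library is given in the sources used here. With 1 library per site there is no replicate error, so that every difference below is between these 2 libraries or between nuclei of 1 library, the ranges given are 95% counting intervals, and no p-value was computed.

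Protocadherins are adhesion proteins of the cadherin superfamily. Clustered protocadherins sit in tandem arrays and are chosen by promoter, whereas the non-clustered genes stand alone in the genome, bind mostly to their own kind across cell contacts, and differ from neuron type to neuron type. In the olfactory system, members of the family are known from developing axons and their targets. *Pcdh7* and *Pcdh9* belong to the delta-1 group, in which the cytoplasmic tail can bind protein phosphatase 1. *Pcdh8*, *Pcdh10*, *Pcdh17*, *Pcdh18* and *Pcdh19* belong to the delta-2 group, several of which recruit the WAVE complex that drives branching of actin. *Pcdh20* stands outside both groups. *Pcdh15* is best known from the inner ear, where it pairs with cadherin 23 in the tip links that gate hair cell channels.

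The members lie on 5 chromosomes of the mouse genome (GENCODE M21 annotation of GRCm38, in which 99.6% of the deposited gene identifiers were found). *Pcdh9* (chr14:93013410-93890679, minus strand), *Pcdh8*, *Pcdh17* and *Pcdh20* are on chromosome 14, *Pcdh10* and *Pcdh18* on chromosome 3, *Pcdh7* (chr5:57717967-58133230, plus strand) on chromosome 5, *Pcdh15* (chr10:73099342-74649737, plus strand) on chromosome 10 and *Pcdh19* (chrX:133582860-133688987, minus strand) on chromosome X. *Pcdh15* spans 1550 kb, *Pcdh9* 877 kb and *Pcdh7* 415 kb, against 4.54 kb for *Pcdh8*, 6.65 kb for *Pcdh20* and a median of 17.4 kb over protein-coding genes. Because nuclear RNA holds unspliced transcripts and the sources used here do not say whether reads in introns were counted, levels are compared between nuclei and never between genes.

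The 2 members on which most of the results turn differ in the bases before their start. The 250 bases before the RefSeq start (GRCm38.p6) of *Pcdh9* (chr14:93890680-93890929, minus strand) and of *Pcdh15* (chr10:73821617-73821866, plus strand) are printed 5′ to 3′, with capitals for TATAAA, the only letters found there of the 3 motifs searched on both strands (CCCNNGGG, bound by EBF factors, GGTGTG, bound by T-box factors, and TATAAA, the TATA box).
Pcdh9: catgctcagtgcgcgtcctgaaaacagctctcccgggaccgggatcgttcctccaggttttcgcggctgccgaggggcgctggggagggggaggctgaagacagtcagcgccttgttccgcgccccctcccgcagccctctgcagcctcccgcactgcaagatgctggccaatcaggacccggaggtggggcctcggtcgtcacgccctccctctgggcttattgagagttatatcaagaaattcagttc
Pcdh15: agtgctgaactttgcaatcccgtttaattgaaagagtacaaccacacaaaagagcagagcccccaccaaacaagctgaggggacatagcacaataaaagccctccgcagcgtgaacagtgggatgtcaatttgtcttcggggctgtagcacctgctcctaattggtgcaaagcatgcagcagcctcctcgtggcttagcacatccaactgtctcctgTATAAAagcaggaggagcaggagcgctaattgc

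The match in *Pcdh15* begins 33 bases before the start. TATAAA stands in 12.4% of all 32851 RefSeq promoters of this length and before 2 members, *Pcdh15* and *Pcdh8*. Neither CCCNNGGG (11.8% of all promoters) nor GGTGTG (16.3%) was found before any member. The *Pcdh9* stretch holds 18 CG dinucleotides and the *Pcdh15* stretch 6, against a median of 6 over all promoters. The RefSeq start of *Pcdh15* lies 722525 bases inside the GENCODE gene, which has 41 transcripts, and reads taken near the 3′ end do not tell which start was in use.

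Of 188 AON barcodes 102 had at least 1000 detected genes, and of 74 pPCx barcodes 63 did, with no barcode shared between the libraries. A nucleus was called a projection nucleus when its UMIs (unique molecular identifiers, 1 per captured molecule) of *Slc17a7*, *Slc17a6*, *Tbx21* and *Cdhr1*, which mark the glutamatergic mitral and tufted cells, exceeded those of the GABAergic genes *Gad1*, *Gad2* and *Slc32a1*. By this rule the AON library held 25 projection nuclei (24.5% of the kept nuclei, 16.5 to 34.0), 47 GABAergic nuclei and 30 remaining nuclei, of which 17 were astrocyte-like and 8 oligodendrocyte-like by their markers. The pPCx library held 59 projection nuclei (93.7%, 84.5 to 98.2), 2 GABAergic nuclei and 2 remaining nuclei. Projection nuclei had a median depth of 38129 UMIs (AON) and 34306 UMIs (pPCx), but 1 AON nucleus with 274993 UMIs gave 24.6% of its class, and 7 AON and 2 pPCx projection nuclei had under 10000 UMIs. The label fitted the AON class less well: 6 of its 25 nuclei rested on a single excitatory UMI, and 3 had glial marker UMIs (113 to 284) above their neuron marker UMIs. *Mbp*, a myelin gene of oligodendrocytes, had UMIs in 12 of 25 AON and 41 of 59 pPCx projection nuclei, so that a single UMI of any gene cannot be told apart from RNA shed by other nuclei.

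In projection nuclei the delta-1 genes *Pcdh7* and *Pcdh9*, as well as *Pcdh15*, differed by over 2-fold between the libraries. Levels are given in CPM, the UMIs of a gene per 1000000 UMIs of the summed nuclei. Single AON nuclei ran from 0 to 3226 CPM of *Pcdh7* with a median of 1253 CPM, and pPCx nuclei from 0 to 2737 CPM with a median of 395 CPM. Summed, *Pcdh7* reached 1397 CPM (1328 to 1468) against 420 CPM (394 to 447), 3.33-fold higher in AON nuclei (3.07 to 3.61). For *Pcdh15* the AON nuclei spread from 0 to 14504 CPM around a median of 1437 CPM, and the pPCx nuclei from 0 to 8296 CPM around 202 CPM. Its sums were 4333 CPM (4212 to 4457) and 1880 CPM (1825 to 1937), 2.30-fold higher in AON nuclei (2.21 to 2.40). Both genes overlapped widely between the libraries.

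*Pcdh9* went the other way. The median AON nucleus had 184 CPM and the median pPCx nucleus 3762 CPM, with ranges from 0 to 48921 and from 0 to 10147 CPM. The sums were 2031 CPM (1949 to 2117) against 4497 CPM (4411 to 4584), 2.21-fold lower in AON nuclei (2.12 to 2.32). The *Pcdh9* value of the AON library rested on few nuclei, since the deepest nucleus gave 1183 of its 2270 UMIs (52.1%). When each nucleus was given equal weight the *Pcdh9* ratio shrank to 1.27-fold, a mean in which a nucleus of 3291 UMIs carried 161 of *Pcdh9*, while without nuclei over 3 times the median depth it grew to a log2 ratio of -1.72, against -1.15 with all nuclei.

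**Figure D1:**
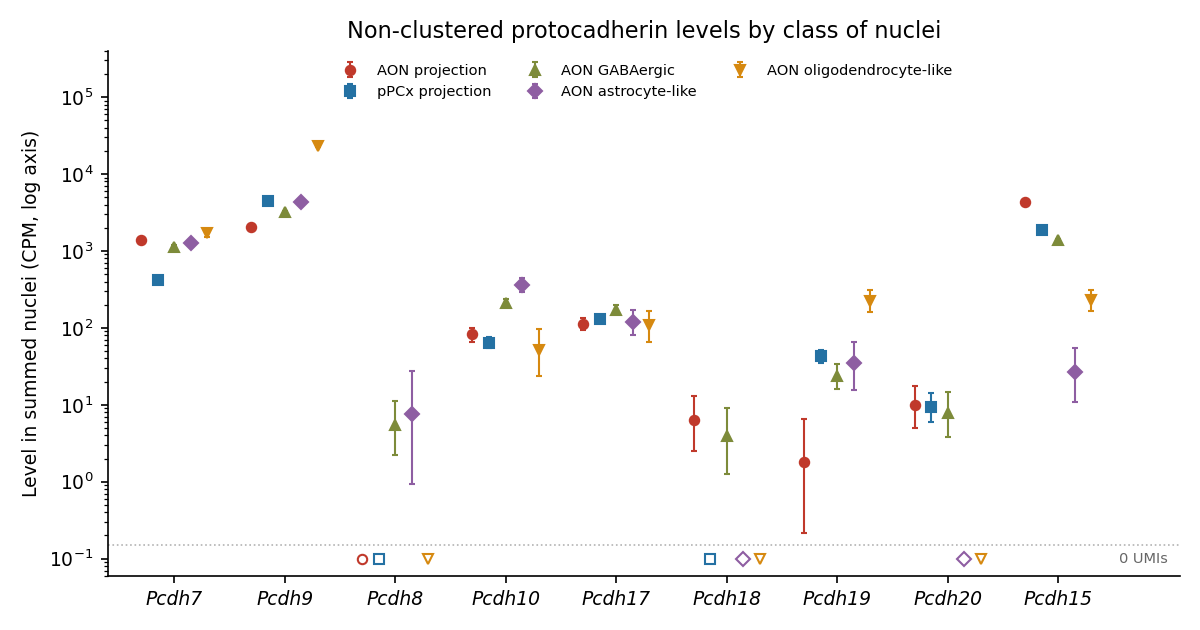
Level of each member (CPM, log axis) in the summed nuclei of 5 classes. Bars are exact 95% Poisson intervals of the UMI sums, and open symbols below the dotted line mark sums of 0 UMIs. *Pcdh15* was highest in AON projection nuclei (4333 CPM), *Pcdh9* in oligodendrocyte-like nuclei (22952 CPM) and *Pcdh10* in astrocyte-like nuclei (360 CPM).

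Among the delta-2 genes, *Pcdh19* set the libraries apart. Mutations of this X-linked gene cause an epilepsy that affects mainly females. It had 2 UMIs in 1 of 25 AON projection nuclei and 99 UMIs in 31 of 59 pPCx projection nuclei, which gave 1.79 CPM (0.217 to 6.47) and 42.5 CPM (34.6 to 51.8), a ratio of 23.8 towards the pPCx library (6.41 to 199). The libraries also differed in sex-linked genes, with 0 UMIs of *Xist* in AON and 1744 in pPCx projection nuclei, and 139 and 0 UMIs of the Y-linked *Eif2s3y*. This difference coincides with the injection site in every ratio between the libraries. Its part in the *Pcdh19* ratio, or in any other, was not tested. Elsewhere in the AON library, *Pcdh19* was present in 13 of 47 GABAergic nuclei (30 UMIs), in 3 of 17 astrocyte-like nuclei (9 UMIs) and in 1 oligodendrocyte-like nucleus (40 UMIs).

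*Pcdh10*, described in the olfactory and limbic systems as OL-protocadherin, had 92 UMIs at 82.3 CPM in AON and 149 UMIs at 64.0 CPM in pPCx projection nuclei, a ratio of 1.29 (0.981 to 1.68). Of the AON UMIs, 66 (71.7%) were in the deepest nucleus, and without nuclei over 3 times the median depth the log2 ratio was -0.67, against 0.37 with all nuclei. *Pcdh17*, which acts in the assembly of presynaptic sites, had 127 UMIs at 114 CPM and 300 UMIs at 129 CPM, a ratio of 0.882 (0.711 to 1.09). For *Pcdh20*, 11 and 22 UMIs gave 9.84 and 9.45 CPM (ratio 1.04, 0.456 to 2.24), but with equal weights of nuclei it was 2.34-fold lower in AON nuclei, and 63.6% of the AON UMIs were in 1 nucleus. *Pcdh18* had 7 UMIs in 3 AON nuclei and none in the pPCx nuclei, 4.86-fold higher by a floor of 3 UMIs, with a counting interval that starts at 3.00. It had fewer than the 10 UMIs required for a call, and 57.1% of its AON UMIs were in 1 nucleus. *Pcdh8*, an activity-induced gene that binds N-cadherin, had 0 UMIs in projection nuclei of both libraries, where 3 UMIs would be 2.68 CPM (AON) and 1.29 CPM (pPCx).

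Thus 7 of the 9 members had at least 10 UMIs over both libraries, of which *Pcdh7* and *Pcdh15* were at least 2-fold higher in AON projection nuclei, *Pcdh9* and *Pcdh19* at least 2-fold lower, and 3 lay within 2-fold. Of all 13677 genes with that many UMIs, 8.51% were at least 2-fold higher and 12.4% at least 2-fold lower. The median log2 ratio was 0.09 over the 7 members and -0.06 over all genes.

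Against the GABAergic nuclei sorted with them, AON projection nuclei stood out by *Pcdh15*. It was 3.17-fold higher (3.00 to 3.35) than in GABAergic nuclei, where it had 1740 UMIs at 1369 CPM. *Pcdh10* was 2.57-fold lower (2.02 to 3.29) and *Pcdh19* 13.2-fold lower (3.35 to 114) in projection nuclei. *Pcdh7* (1397 against 1129 CPM), *Pcdh9* (2031 against 3198 CPM), *Pcdh17* (114 against 171 CPM), *Pcdh18* (7 against 5 UMIs) and *Pcdh20* (11 against 10 UMIs) lay within 2-fold. *Pcdh8*, absent from projection nuclei, had 1 UMI in each of 7 GABAergic nuclei. The count of 1 higher and 2 lower among 8 members with 10 UMIs stands beside 16.5% higher and 16.8% lower among 12272 genes, and the median log2 ratio was -0.14 over these members and -0.05 over all genes. Without the deepest nucleus 5 members passed 2-fold, *Pcdh9* reaching 2.48-fold lower and *Pcdh18* 2.06-fold higher, and the log2 ratio of *Pcdh10* went from -1.36 to -2.75. With equal weights of nuclei *Pcdh20* turned from a log2 ratio of 0.32 to -1.57, 2.97-fold lower in projection nuclei.

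The level of *Pcdh15* was uneven among GABAergic nuclei. Single nuclei ran from 0 to 11885 CPM with a median of 120 CPM, and 20.4% of all its UMIs there came from 1 nucleus. *Pcdh10* was detected in 38 of 47 GABAergic nuclei, up to 2369 CPM, against 8 of 25 projection nuclei, up to 240 CPM. The 2 GABAergic nuclei of the pPCx library had 101 and 0 UMIs of *Pcdh15*.

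The remaining nuclei of the AON library, mostly glia, carried a different set. *Pcdh15* was 19.4-fold higher (16.0 to 23.8) in projection nuclei than in them, with 26.8 CPM (10.8 to 55.2) in astrocyte-like and 232 CPM (167 to 315) in oligodendrocyte-like nuclei. *Pcdh9* was 5.43-fold lower (5.17 to 5.70) in projection nuclei. All 8 oligodendrocyte-like nuclei were high in it, from 15477 to 27212 CPM with a median of 22601 CPM. In astrocyte-like nuclei it ranged from 1051 to 11920 CPM with a median of 3387 CPM. *Pcdh10* was 2.86-fold lower in projection nuclei (2.15 to 3.81), and 94 of its 113 UMIs were in astrocyte-like nuclei, at 360 CPM (291 to 441). Without nuclei over 3 times the median depth its log2 ratio was -3.00, against -1.52 with all nuclei.

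*Pcdh7* (1397 against 1928 CPM) and *Pcdh17* (114 against 108 CPM) lay within 2-fold of the remaining nuclei. Among the latter, 1 unnamed nucleus held 283 UMIs of *Pcdh7* and 1 oligodendrocyte-like nucleus 278, out of 925. *Pcdh19* had a ratio of 0.0175 to the remaining nuclei (0.00206 to 0.0668), but 81.6% of its UMIs there were in 1 nucleus, and without nuclei over 3 times the median depth 9 UMIs were left and the log2 ratio went from -5.53 to -2.92. *Pcdh20* had 11 UMIs in projection nuclei and 0 in the remaining nuclei, 1.57-fold higher by a floor of 3 UMIs, with a counting interval that starts at 1.08. The call of *Pcdh20* was lost with a prior of 5 UMIs in place of 0.5. Altogether 2 members were higher and 3 lower among the 7 with 10 UMIs, against 18.5% higher and 25.2% lower of 11312 genes, with medians of -0.47 and -0.21. In this comparison the median log2 ratio of genes with at least 50 UMIs was -0.15, a shift to be set beside each ratio.

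**Figure D2:**
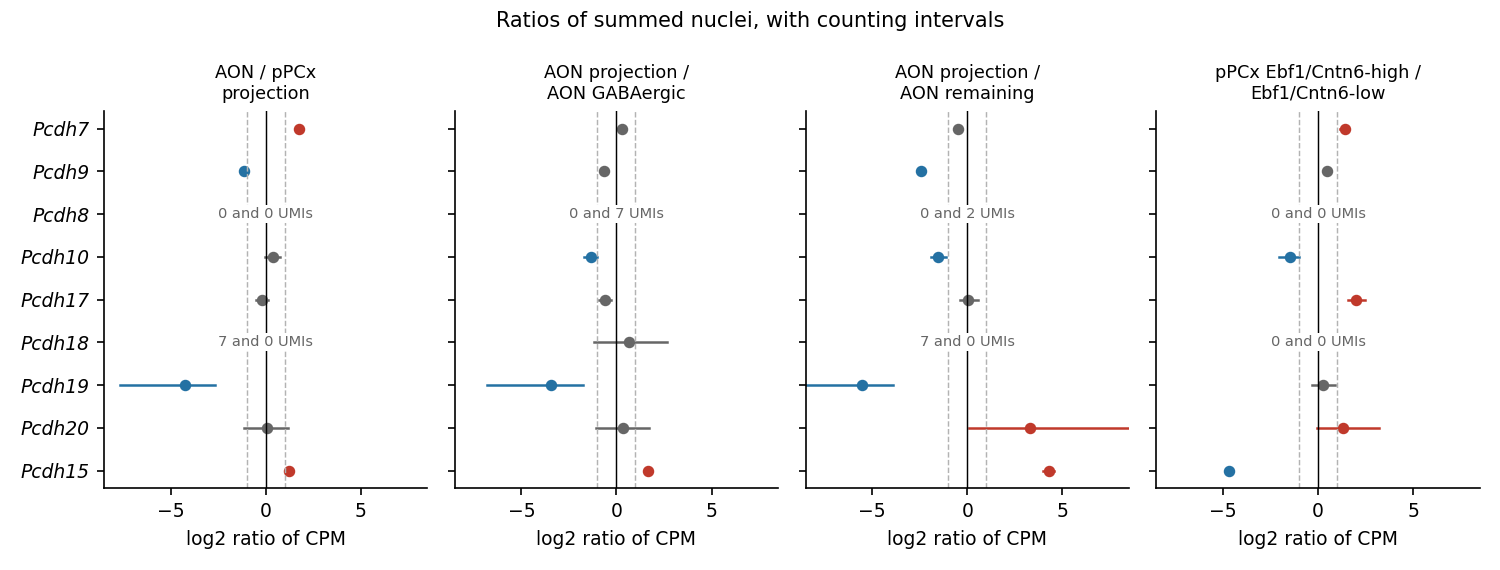
Log2 ratio of CPM for each member in the 4 comparisons, with exact 95% counting intervals as lines that run to the panel edge where they exceed it. Dashed lines mark 2-fold, red points lie at or above it and blue points at or below its inverse, and members with under 10 UMIs are given by their UMIs. *Pcdh15* was past 2-fold in all 4 comparisons, higher in AON projection nuclei in 3 and lower in Ebf1/Cntn6-high pPCx nuclei.

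Projection nuclei of the pPCx library fell into 2 sets by *Ebf1*, which codes for a transcription factor of the EBF family, and *Cntn6*, an adhesion protein of the contactin family. In 37 nuclei the summed level of both genes was between 1433 and 7892 CPM (Ebf1/Cntn6-high) and in 22 it was at most 100 CPM (Ebf1/Cntn6-low), with none from 250 to 1000 CPM around the threshold of 500 CPM. Both sets contained *Tbx21*, at 139 and 120 CPM. No member was used in the division.

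*Pcdh15* separated these sets without overlap. In the 37 Ebf1/Cntn6-high nuclei it ran from 0 to 915 CPM with a median of 104 CPM, and in the 22 Ebf1/Cntn6-low nuclei from 1851 to 8296 CPM with a median of 3960 CPM. The sums were 203 UMIs (156 CPM, 135 to 179) and 4175 UMIs (4074 CPM, 3951 to 4199), 26.2-fold lower in the Ebf1/Cntn6-high set (22.7 to 30.3). The median depths were 31440 and 41132 UMIs. The alternatives tried moved the log2 ratio of -4.71 little, to -4.76 with equal weights, -4.79 with scaling by the median of gene ratios and -4.68 with the larger prior.

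*Pcdh17*, *Pcdh7* and *Pcdh20* leaned the opposite way. *Pcdh17* had 251 UMIs at 193 CPM in the high and 49 UMIs at 47.8 CPM in the low set, 4.03-fold higher (2.96 to 5.59), and was detected in 34 of 37 against 14 of 22 nuclei. *Pcdh7* had 577 CPM (536 to 620) and 220 CPM (192 to 250), 2.63-fold higher (2.26 to 3.06), but single nuclei overlapped, from 0 to 2737 CPM in the high and from 0 to 1408 CPM in the low set. For *Pcdh20*, 17 and 5 UMIs gave a ratio of 2.67 whose interval (0.947 to 9.27) included 1, and 9 of the 17 were in 1 nucleus.

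*Pcdh10* was 2.85-fold lower in the high set (1.99 to 4.12), with 46 against 103 UMIs, of which 41 were in 1 nucleus of the low set. With equal weights it was 1.94-fold lower and *Pcdh20* 1.16-fold higher, so that both calls were lost. *Pcdh9* (5100 against 3730 CPM, ratio 1.37, 1.31 to 1.42) and *Pcdh19* (46.0 against 38.1 CPM, ratio 1.21, 0.795 to 1.86) lay within 2-fold. In all, 3 members were higher and 2 lower among the 7 with 10 UMIs, against 12.4% higher and 6.83% lower of 12331 genes, and the median log2 ratios were 0.45 and 0.12.

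**Figure D3:**
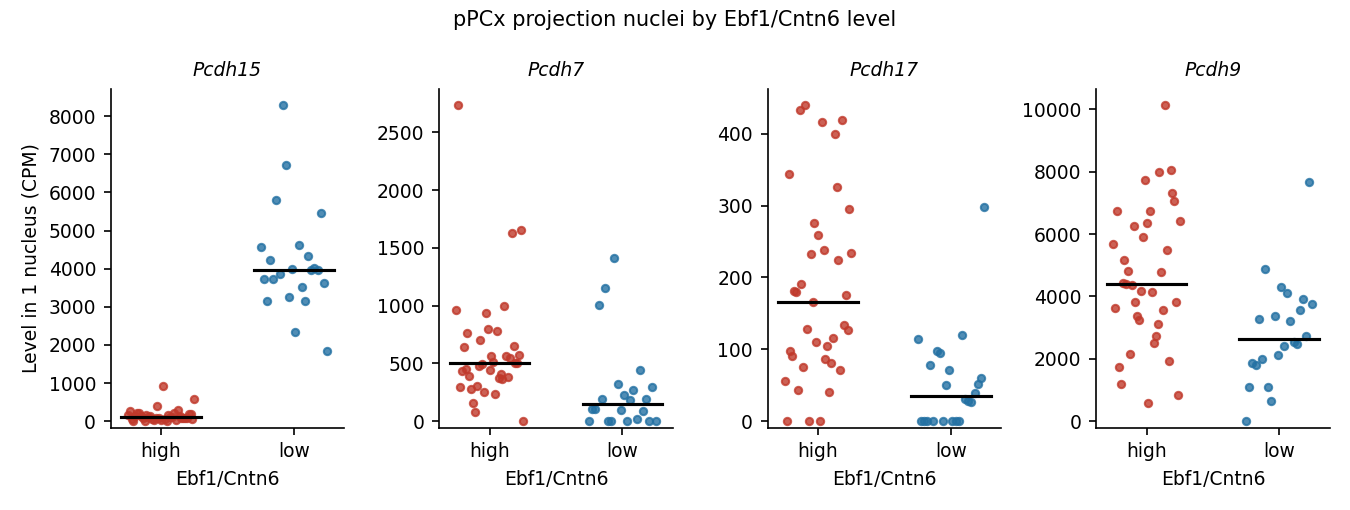
*Pcdh15*, *Pcdh7*, *Pcdh17* and *Pcdh9* in single pPCx projection nuclei (CPM, linear axes that differ between panels), 37 Ebf1/Cntn6-high and 22 Ebf1/Cntn6-low, with black lines at the medians and points spread sideways for display. The *Pcdh15* ranges do not meet (at most 915 CPM in the high set, at least 1851 CPM in the low set), while the other 3 overlap.

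In the AON library the threshold met no gap (491 CPM below it, 608 CPM above it), and 2 of 25 projection nuclei were Ebf1/Cntn6-high, with 107 UMIs of *Ebf1* and 1 of *Cntn6*. They had 121 CPM of *Pcdh15* (65.9 to 202) and 2076 CPM of *Pcdh9* (1822 to 2355), against 4821 and 2026 CPM in the 23 Ebf1/Cntn6-low nuclei. Among Ebf1/Cntn6-low nuclei alone, the sums of *Pcdh15* were thus 4821 CPM (4686 to 4959) for AON and 4074 CPM (3951 to 4199) for pPCx. The medians of single nuclei went the other way, with 1720 CPM for AON and 3960 CPM for pPCx.

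Nucleus by nucleus, AON projection nuclei showed a combination of *Pcdh9* and *Pcdh15* levels that was not seen in pPCx nuclei above the same minimum depth. To describe it, nuclei with at least 10000 UMIs were divided at 500 CPM of *Pcdh9* and 1000 CPM of *Pcdh15*. Their depth was not matched and ran from 10060 to 274993 UMIs (AON) and from 12075 to 167296 UMIs (pPCx). These thresholds were chosen after the values were seen, and lie between 375 and 2027 CPM of *Pcdh9* and between 361 and 1437 CPM of *Pcdh15* in the AON nuclei. Of 18 such AON nuclei, 8 were low in *Pcdh9* and high in *Pcdh15* (44.4%, 21.5 to 69.2), 4 were high in *Pcdh9* and low in *Pcdh15*, 4 were high in both and 2 were low in both. In the 8 nuclei *Pcdh15* ran from 5338 to 14504 CPM (median 7579) and *Pcdh9* from 0 to 177 CPM (median 35.3).

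None of the 57 pPCx projection nuclei above that minimum was low in *Pcdh9* (0 of 57, upper limit 6.27%), the lowest standing at 587 CPM. With the *Pcdh9* threshold at 1000 CPM, 1 of the 57 was low in it and high in *Pcdh15*, while the AON count was again 8, and 1 shallower pPCx nucleus of 8767 UMIs had no UMI of *Pcdh9* and 40 of *Pcdh15*. There 37 were high in *Pcdh9* and low in *Pcdh15*, and these were the 37 Ebf1/Cntn6-high nuclei, while the 20 Ebf1/Cntn6-low nuclei above it were high in both. Of the AON GABAergic nuclei 4 of 43 were low in *Pcdh9* and high in *Pcdh15*. On log-transformed levels the correlation of both genes was r = -0.23 over all 25 AON projection nuclei and -0.59 over the 18 with at least 10000 UMIs. It was -0.39 over all 59 pPCx nuclei and -0.08 and -0.43 within the high and low sets, all values over nuclei of 1 library that share its depth and background.

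**Figure D4:**
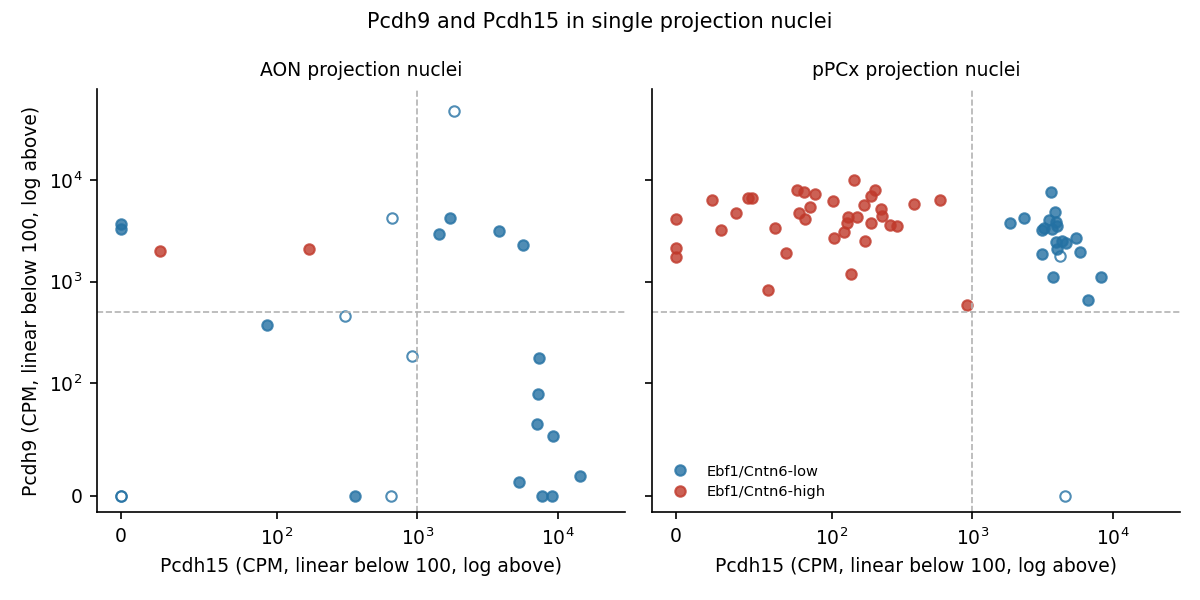
*Pcdh9* against *Pcdh15* in each projection nucleus (CPM, axes linear below 100 and logarithmic above), filled for 10000 or more UMIs and open for fewer, red for Ebf1/Cntn6-high and blue for Ebf1/Cntn6-low, with dashed lines at 500 CPM of *Pcdh9* and 1000 CPM of *Pcdh15*. In the AON library 8 filled points lie low in *Pcdh9* and high in *Pcdh15*, a corner that holds no filled point of the pPCx library.

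The 8 AON nuclei low in *Pcdh9* and high in *Pcdh15* shared some further genes and not others. *Barhl2*, a homeobox gene, had 26 UMIs in 7 of the 8 nuclei, 0 in the 8 nuclei high in *Pcdh9* and 1 in the 2 nuclei low in both. *Gria4*, a subunit of AMPA-type glutamate receptors, stood at 3650 CPM over the 8 nuclei (1621 to 6743 in single nuclei). It was 482 CPM in the nuclei high in both, 157 CPM in those high in *Pcdh9* alone and 640 CPM in the 2 low in both. Single nuclei of these sets reached 2410, 641 and 948 CPM, the first of which lies within the range of the 8. *Pcdh7* was also high in them, from 1245 to 3226 CPM in single nuclei with a sum of 2465 CPM. The sum was 693 CPM in the nuclei high in both, 685 CPM in those high in *Pcdh9* alone and 1310 CPM in the 2 low in both, and single nuclei of these sets reached 1564, 1673 and 1941 CPM, within the range of the 8. Of the 4 nuclei high in *Pcdh9* and low in *Pcdh15*, 2 had glial markers above neuron markers, and the other 2 were the Ebf1/Cntn6-high nuclei and held 41 UMIs of *Ebf3*. Of the 2 nuclei low in both, 1 also had glial markers above neuron markers, and it held no UMI of *Gria4*, *Pcdh7* or *Barhl2*. The other stood at 948 CPM of *Gria4*, 1941 CPM of *Pcdh7* and 45.1 CPM of *Barhl2*. Its *Pcdh7* and *Barhl2* levels lay within the range of the 8. Of the 4 nuclei high in both, 1 was the nucleus of 274993 UMIs, and 563 UMIs of *Fam19a2* were found in 3 of the 4. *Fam19a2* also had 38 UMIs in 7 of the 8 nuclei low in *Pcdh9* and high in *Pcdh15*, and *Ebf3* had 11 UMIs in 1 nucleus high in both. *Vdr* had 9 UMIs in 3 of the 8 nuclei and 1 UMI in those high in both. *Astn2* stood at 2657 CPM in the 8 and 784 CPM in the nuclei high in both. It was 4480 CPM in those high in *Pcdh9* alone and 2346 CPM in the 2 low in both. These genes were picked after the sets were seen, and their values are a description.

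Counted simply as present or absent, the members formed many combinations. Each nucleus with at least 10000 UMIs was thinned to that depth by 1 random draw, which left 18 AON and 57 pPCx projection nuclei. The median number of members with a UMI was 3 in the AON (range 2 to 6) and 4 in the pPCx nuclei (2 to 5), and without thinning it was 4 and 5. *Pcdh9* was seen in 57 of 57 pPCx but in 11 of 18 AON nuclei (61.1%, 35.7 to 82.7). *Pcdh7* was seen in 17 of 18 and 47 of 57, *Pcdh15* in 15 of 18 and 46 of 57, *Pcdh17* in 8 of 18 and 37 of 57, *Pcdh10* in 7 of 18 and 20 of 57, and *Pcdh19* in 0 of 18 and 18 of 57. The *Pcdh10* shares of this draw were 38.9% (AON) and 35.1% (pPCx). As the expectation over all draws they were 28.2% and 33.7%, in the opposite order.

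In the AON nuclei 10 combinations were found, led by *Pcdh7* with *Pcdh15* alone (4 of 18), and 6 combinations occurred in a single nucleus. In the pPCx nuclei there were 22, with 10 in a single nucleus. The most frequent there were *Pcdh7*, *Pcdh9*, *Pcdh17* and *Pcdh15*, with or without *Pcdh10* (7 of 57 each). All 57 contained *Pcdh9*, so that the pPCx combinations differed by the other members. GABAergic AON nuclei held 26 combinations over 43 nuclei. At this depth 1 UMI is 100 CPM, and presence or absence of a member near that level follows from sampling as well as from the nucleus: *Pcdh15* was present in 26 of 37 Ebf1/Cntn6-high nuclei although its level there was 156 CPM.

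Over the 59 pPCx projection nuclei, the genes most like each member on log-transformed levels were ranked by Pearson correlation. *Pcdh15* was most like *Gm15398* (r = 0.94), then *Sema6d* (0.87) and *Gria1* (0.83), and most unlike *Ebf1* (-0.92), *Gria2* (-0.83) and *Cpa6* (-0.82). *Gm15398* is a long non-coding RNA that lies inside *Pcdh15* on the opposite strand (chr10:73201399-73327175), and the sources used here do not say whether counting used the strand, so that its reads and those of *Pcdh15* cannot be told apart with certainty. It had 1068 UMIs in all 22 Ebf1/Cntn6-low nuclei against 33 UMIs in 13 of 37 Ebf1/Cntn6-high nuclei, and in the AON library its correlation with *Pcdh15* was 0.86 over 25 nuclei. *Sema6d*, a transmembrane semaphorin, had r = -0.29 there, *Gria1* 0.29, *Ebf1* -0.27, *Gria2* 0.12 and *Cpa6* 0.11. The 59 pPCx nuclei mix the Ebf1/Cntn6-high and low sets, which *Ebf1* itself helped define and between which *Pcdh15* did not overlap. For these genes, correlations with *Pcdh15* within either set are not given.

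*Pcdh9* was most like *Fam19a2* (0.66) and the neurotrophin receptor gene *Ntrk3* (0.64). *Pcdh17* followed *Cntnap5a* (0.64), *Gria2* (0.59) and *Cpa6* (0.57), and its most unlike gene was *Pcdh15* (-0.58). Within the Ebf1/Cntn6-high and low sets *Pcdh17* and *Pcdh15* had r = -0.25 and -0.28, and over the 25 AON nuclei 0.12. *Pcdh7* was nearest to *Map7* (0.58), *Syne1* (0.56) and *Dip2b* (0.56), and *Pcdh10* to *Golim4* (0.54) and *Car10* (0.53). In AON nuclei *Ntrk3* had r = -0.05 with *Pcdh9* and *Cntnap5a* r = -0.04 with *Pcdh17*, whereas *Syne1* had 0.48 with *Pcdh7* and *Gria2* 0.50 with *Pcdh17*. Among the members themselves, *Pcdh7* and *Pcdh15* had r = 0.60 over all 25 AON nuclei (0.54 over the 18 deeper ones) and -0.48 over the 59 pPCx nuclei, but 0.00 and 0.12 within the Ebf1/Cntn6-high and low sets.

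Other genes of the same pathways were counted from 3 lists. Of 11 other delta and large cadherins, 10 had enough UMIs between the libraries, 2 were at least 2-fold higher in AON projection nuclei, 2 lower and 6 within 2-fold (median log2 ratio 0.11), against 8.51% higher and 12.4% lower of all genes. *Cdh23*, the tip-link partner of *Pcdh15*, was 68.0 CPM in the AON and 165 CPM in the pPCx projection nuclei, a ratio of 0.412 (0.318 to 0.529), opposite in direction to *Pcdh15*. *Dchs2*, a ligand of giant Fat cadherins, was 2.90-fold higher in the AON nuclei (1.64 to 5.19). Against GABAergic nuclei 7 of 10 were higher and 1 lower in AON projection nuclei (median log2 ratio 1.16, against -0.05 over all genes, of which 16.5% were higher and 16.8% lower). *Cdh23* was 12.4-fold higher (5.71 to 31.8), *Fat3* 6.69-fold (5.98 to 7.49), *Fat4* 6.03-fold (3.04 to 13.3) and the delta-1 gene *Pcdh11x* 2.23-fold (1.90 to 2.62). Against the remaining nuclei 4 of 10 were higher and 2 lower (median log2 ratio 0.46, with 18.5% and 25.2% of all genes), with *Fat3* 21.5-fold (15.9 to 29.8) and *Cdh23* 3.63-fold (1.81 to 8.23) higher. Between the Ebf1/Cntn6 sets 1 of 9 was past 2-fold, *Fat1*, 2.74-fold higher in the high set (1.96 to 3.91), against 12.4% higher and 6.83% lower of all genes.

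Of 15 cytoplasmic and cis partners of the family, 13 lay within 2-fold between the libraries and 2 were higher in AON projection nuclei. Of all genes, 8.51% were at least 2-fold higher and 12.4% lower. *Dab1*, an adaptor that *Pcdh18* binds, was 2.20-fold higher in the AON projection nuclei (1.91 to 2.52) and 3.71-fold lower than in GABAergic nuclei (3.34 to 4.13). The WAVE complex gene *Cyfip1* and the phosphatase gene *Ppp1cc* had ratios of 0.361 (0.265 to 0.485) and 0.385 (0.270 to 0.539) to GABAergic nuclei. Thus 0 of 15 partners were higher than in GABAergic nuclei and 3 lower, against 16.5% higher and 16.8% lower of all genes. Against the remaining nuclei the WAVE complex genes *Cyfip2* and *Abi2* were 3.58-fold (2.19 to 6.20) and 2.58-fold (1.75 to 3.90) higher, and *Wasf3*, *Abi1*, *Ppp1cc* and *Dab1* had ratios from 0.396 to 0.489. These 2 higher and 4 lower of 15 stand beside 18.5% higher and 25.2% lower of all genes. Between the Ebf1/Cntn6 sets 14 of 15 lay within 2-fold, with *Wasf3* 2.28-fold higher in the high set (1.49 to 3.58). Of all genes, 12.4% were higher and 6.83% lower in that set. Of 9 hair cell partners of *Pcdh15*, 5 had 10 UMIs over both libraries, and 3 were at least 2-fold higher in AON projection nuclei, against 8.51% of all genes. They rested on few UMIs and were named after their values were seen. *Tmc1* had 18 against 15 UMIs (ratio 2.50, 1.19 to 5.33), while for *Tmc2* with 7 against 4 UMIs (0.927 to 17.0) and *Ush1g* with 13 against 12 UMIs (0.950 to 5.41) the interval of the ratio included 1. *Ush1g* had 0 UMIs in both GABAergic and remaining nuclei of the AON library. Against GABAergic nuclei 1 of 2 partners with 10 UMIs was higher and 0 lower (16.5% and 16.8% of all genes). Against the remaining nuclei 1 of 3 was higher and 0 lower (18.5% and 25.2%). Between the Ebf1/Cntn6 sets 2 of 3 were higher and 1 lower in the high set (12.4% and 6.83%), where *Pcdh15* was lower. Their median log2 ratio was 1.01, against 0.12 over all genes.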

How the data were processed

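Nuclei of 1 AON and 1 pPCx library (10x Chromium 3′ chemistry) were analysed from the raw UMI counts per gene and nucleus that the authors deposited. They were made with Cell Ranger (version 3.1.0 per the file headers). The build and annotation used for these libraries are not given in the sources used here. The 9 genes, the gene lists and the class rule were chosen with earlier results of these data known. Nuclei with 1000 or more genes were kept, none of which exceeded 0.93% mitochondrial UMIs (the study filtered at 5%), and no doublet caller was run. GABAergic nuclei had more GABAergic than excitatory UMIs and at least 3 of them. UMIs were summed per class and scaled to 1000000. Ratios printed as folds are of the CPM as they stand, whereas log2 ratios, folds under alternative settings and the 2-fold threshold have 0.5 UMI added to each sum and so are smaller for low counts. At least 10 UMIs over both sums were required. Sums have exact Poisson, shares Clopper-Pearson and ratios exact conditional binomial intervals (95%), which cover counting error only. With 1 library per group no test was possible. Correlations used log-transformed UMIs per 10000. The rule for named genes took all members, list genes past 2-fold with 50 or more UMIs, and the 3 most correlated genes with r of at least 0.5 for members with 100 or more pPCx UMIs. A gene that this rule named is not reported here. Opposite correlations and the genes of the AON sets were added after values were seen. Computations used Python 3.11.15, numpy 2.4.6 and scipy 1.17.1, and were tested on simulated counts.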

Additional observations from a re-analysis of the deposited data

Results flagged for a closer look

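Barcodes that the filter of 1000 genes removed also held members. In the 86 AON barcodes (median 775 UMIs), *Pcdh9* had 234 UMIs, *Pcdh15* 204, *Pcdh7* 87 and *Pcdh10* 6, and in the 11 pPCx barcodes (median 861 UMIs) *Pcdh9* had 25 UMIs and *Pcdh15* 10. These values were picked out because they exceed the 3 UMIs that a count of 0 allows in barcodes that no comparison used. They were uneven: 1 AON barcode with 1161 UMIs held 145 of *Pcdh9* (12.5% of its UMIs), and another with 511 UMIs held 64 of *Pcdh15* (12.5%). *Pcdh15* was found in 32 of the 86 AON barcodes, and all 10 of its UMIs in the pPCx barcodes were in 1 barcode. Whether these barcodes are nuclei was not tested.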

How the results depend on the processing

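Of 35 recomputed counts of members past 2-fold, 33 were within 1.5 times the value reported. The count between the Ebf1/Cntn6 sets was 3 in place of 5 with equal weights of nuclei, and that between AON projection and GABAergic nuclei 5 in place of 3 without nuclei over 3 times the median UMIs. Of 248 single ratios 206 stayed within the counting interval, 42 moved outside it and 0 of those past 2-fold changed sign. The median number of members per pPCx projection nucleus, 4 as reported, was 3 after thinning to 5000 UMIs, 3 when 2 or more UMIs were required, and 3.93 as the expectation over all draws. Removing nuclei with glial over neuron markers, or those under 10000 UMIs, was added after the data were seen. Depth limits *Pcdh8*, *Pcdh18* and *Pcdh20*. No paired analysis was possible because a site is represented by a single library, so that no replicate could be left out either.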
